A study of Homo sapiens with 9 samples.

Results

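Collagen chain genes are the genes whose platform symbol reads COL, a number, A and a number, and 43 of the 19775 genes with a named probe set on the array met that rule. They were read by 112 probe sets, and 35 of the 43 genes had more than 1. Their transcript levels were compared in HuCCT1 cells, a human line grown from a bile duct cancer (cholangiocarcinoma). Cells with a vector for YAPS127A were read on 5 arrays, and cells with an empty vector on 4. YAPS127A is a form of the transcriptional co-activator YAP1 that lacks a serine phosphorylated by LATS kinases and is constitutively active. The sources used here do not give the vector's promoter or the time of harvest, or say whether cells were clones or separate cultures. The p-values therefore reflect the scatter of these samples alone, and that scatter may be technical. The number of arrays limits the precision.

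Each collagen molecule is built of 3 alpha chains that wind into a triple helix, and each gene of the family encodes 1 such chain. Fibril-forming collagens make the ropes of connective tissue, fibril-associated collagens sit on the surface of those ropes, and type IV collagen makes the sheet-like network of basement membranes, on which bile duct epithelium rests. Epithelial cells are known to make basement membrane chains, while the bulk of fibril-forming collagen in a bile duct tumour is made by fibroblasts of the stroma.

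Signals are given on the log2 scale, and a difference is the mean of the YAPS127A arrays minus the mean of the empty vector arrays on that scale. Probe sets differ in how strongly they bind their transcript, so levels are not compared between genes. Array medians ran between 5.95 and 5.97, and probe sets below the median of all probe sets, 5.96, are called dim here. All 9 measured cholangiocyte and epithelial markers were above that median in at least 1 group. KRT7, a keratin of bile duct cells, averaged 13.49 ± 0.05 (SD, n = 5) in YAPS127A cells and 13.60 ± 0.04 (SD, n = 4) with the empty vector. Of the list 2 rose and 3 fell at an adjusted p below 0.05 in limma, CFTR most (-2.72). The same test called 40.7% of genes with a mean over all arrays above the median signal, 21% higher and 19.7% lower. YAP1 had a log2 signal of 12.71 ± 0.07 (SD, n = 5) in YAPS127A cells and 12.56 ± 0.06 (SD, n = 4) with the empty vector (limma adjusted p = 0.121). It is not known whether the construct is read by its probe sets, so this does not check the labels. The gap between the 3' and 5' actin control probe sets, a sign of RNA length, was 0.888 to 1.58 in YAPS127A cells and 0.985 to 1.69 in empty vector cells, so the groups overlapped.

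Sequence just upstream of 4 members is printed as background. COL12A1 had the highest rise by brightest probe set, and the type IV genes lie as head-to-head couples that start from a shared stretch on opposite strands. The first sequence is the 250 bases before the start of COL12A1 on the minus strand, chr6:75206054-75206303 of GRCh38.p14. The others are plus-strand bases that end just before the starts of COL4A2 (chr13:110307158-110307283), COL4A3 (chr2:227164489-227164623) and COL4A5 (chrX:108439588-108439837), from RefSeq. Capitals mark the letters GGAATG, the core read by TEAD factors, through which YAP1 reaches DNA.
COL12A1: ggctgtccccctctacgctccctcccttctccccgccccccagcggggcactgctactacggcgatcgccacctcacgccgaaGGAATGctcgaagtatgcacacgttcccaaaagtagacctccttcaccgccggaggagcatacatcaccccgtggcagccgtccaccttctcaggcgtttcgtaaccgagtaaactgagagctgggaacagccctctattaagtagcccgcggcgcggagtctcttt
COL4A2 and COL4A1: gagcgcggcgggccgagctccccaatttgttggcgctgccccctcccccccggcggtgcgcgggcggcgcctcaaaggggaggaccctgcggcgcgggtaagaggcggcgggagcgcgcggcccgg
COL4A3 and COL4A4: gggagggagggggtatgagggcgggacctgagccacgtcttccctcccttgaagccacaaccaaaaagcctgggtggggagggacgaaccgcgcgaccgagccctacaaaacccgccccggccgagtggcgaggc
COL4A5 and COL4A6: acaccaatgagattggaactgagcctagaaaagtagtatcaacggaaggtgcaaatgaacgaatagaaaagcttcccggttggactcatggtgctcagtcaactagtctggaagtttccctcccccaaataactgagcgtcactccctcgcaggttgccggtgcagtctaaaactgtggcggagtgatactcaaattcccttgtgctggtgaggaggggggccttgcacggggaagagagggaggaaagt

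The starts of COL4A2 and COL4A1 are separated by 126 bases, those of COL4A3 and COL4A4 by 135 and those of COL4A5 and COL4A6 by 379, so the first and second of these stretches are complete and the last is the part next to COL4A5. Of the 43 members, 31 had an upstream window in the RefSeq table. The called genes COL1A1, COL5A2, COL6A1 and COL8A1 had none and were not searched. On both strands, GGAATG was found in the 250 bases upstream of COL12A1, COL10A1 and COL11A2, in 3 of 43 windows (6.98%), against 4175 of 35116 windows of all genes (11.9%). The matches of COL10A1 and COL11A2 lie before alternative starts, and the windows at their gene starts held none. In COL12A1 the match begins 167 bases before the gene start and reads along the gene's own strand. The letters TGANTCA, bound by AP-1 factors, were found in 1 of the 43 windows, that of COL10A1, against 6.57% of all windows. A match of letters describes these windows and does not show a bound site.

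Collagen chains moved in both directions. By the brightest probe set of each gene, 5 of 43 genes were higher in YAPS127A cells (COL12A1, COL4A4, COL13A1, COL4A2 and COL8A1) and 9 were lower (COL4A6, COL4A5, COL5A2, COL6A2, COL6A1, COL1A1, COL7A1, COL15A1 and COL21A1), each at an adjusted p below 0.05 in limma with Benjamini-Hochberg adjustment over all 54613 probe sets. The remaining 29 did not pass. The same test called 28.7% of all genes, 14.5% higher and 14.2% lower, beside 32.6% of the collagen genes (11.6% higher, 20.9% lower). The groups did not overlap in 14 of the 43 collagen genes, against 28.3% of all genes. The median log2 difference was 0.028 over the collagen genes and 0.0048 over all genes.

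**Figure D1:**
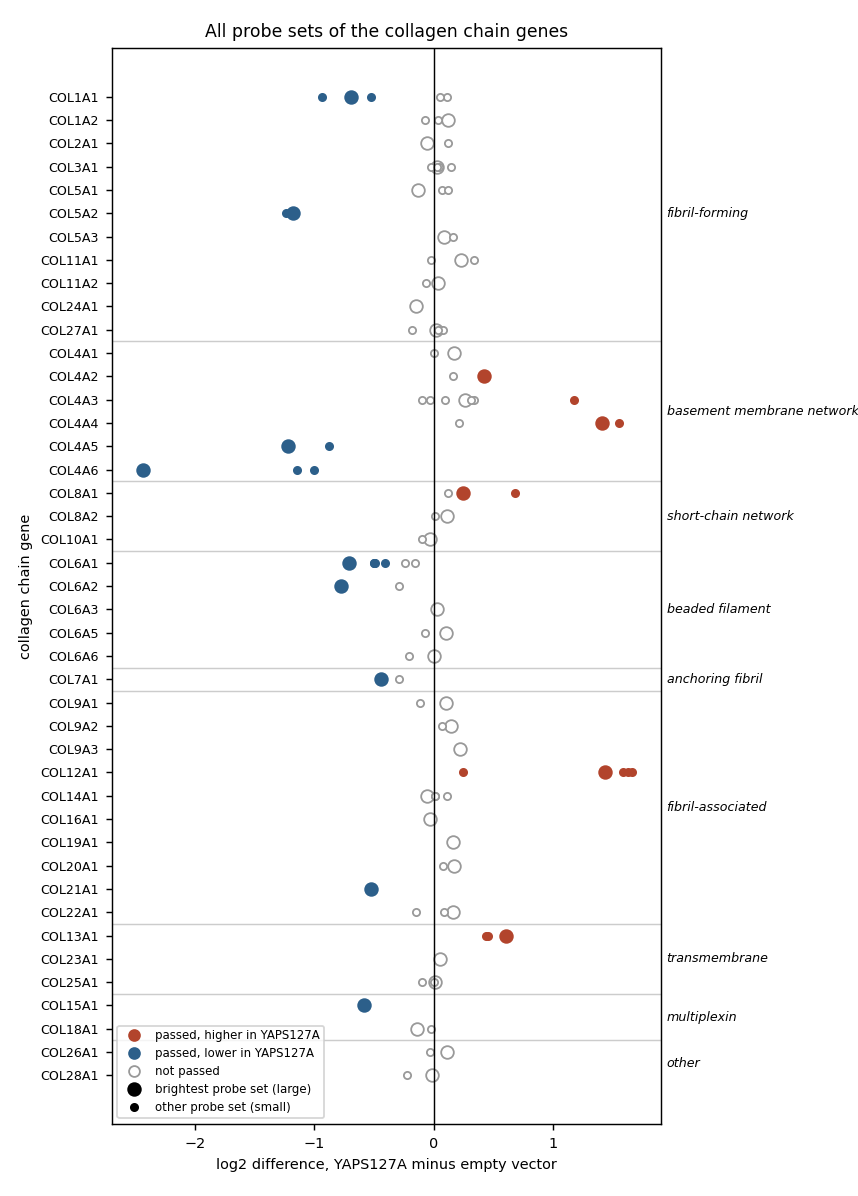
Log2 difference, YAPS127A minus empty vector, of every probe set of the 43 collagen chain genes, ordered by collagen class; large circles are the brightest probe set of a gene, filled circles passed limma at an adjusted p of 0.05. COL12A1 and COL4A4 lie farthest to the right and COL4A6 farthest to the left, at -2.43, while most genes lie near 0.

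Counted by probe set, 14 of 112 rose and 20 fell (30.4% called, against 23.9% of all probe sets, 11.9% higher and 12% lower), and the groups did not overlap in 29 of them, against 22.3% of all probe sets. In none of the 15 genes with a called probe set did another probe set pass in the opposite direction. Of the 17 collagen genes whose mean over all arrays was above the median signal, 5 were higher and 7 lower, against 21% and 19.7% of the 12226 genes of that kind (40.7% in all). Their groups did not overlap in 11 of 17, against 41.1%. Of the 26 dim genes, COL15A1 and COL21A1 passed at the brightest probe set (7.69%), against 28.7% of all genes, dim or not. The arrays read bulk RNA, in which fewer cells of a type and less RNA per cell cannot be told apart.

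**Figure D2:**
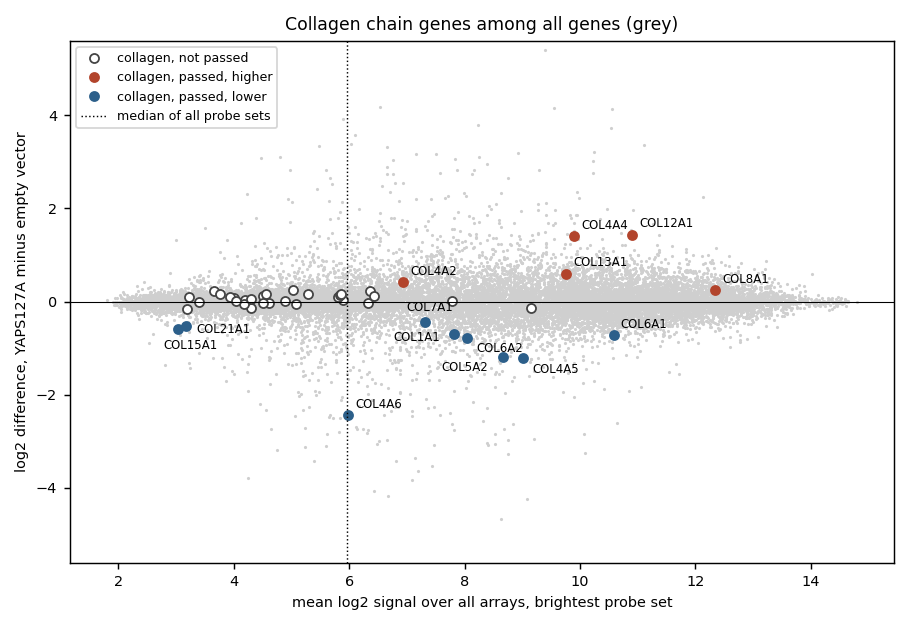
Log2 difference, YAPS127A minus empty vector, against the mean log2 signal over all 9 arrays for the brightest probe set of each gene; grey dots are all 19775 genes and circles the collagen chain genes. Most open circles lie left of the dotted line at 5.96, and 12 of the filled ones lie to its right.

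The clearest rise was that of COL12A1, which encodes type XII collagen, a fibril-associated chain that coats fibrils of type I collagen. Its brightest probe set read 11.62, 11.65, 11.55, 11.54 and 11.35 on the YAPS127A arrays, against 10.14, 9.96, 10.09 and 10.24 on the empty vector arrays. Every YAPS127A array lay above every empty vector array by more than the range of either group. The difference was +1.44 (SE 0.08), or 2.71-fold, with an adjusted p = 2.03e-07 in limma. All 5 of its probe sets rose. The next 3 by signal gave +1.66, +1.58 and +1.63, and the last, whose signal was 3.03 ± 0.06 (SD, n = 5) in YAPS127A cells and 2.79 ± 0.11 (SD, n = 4) with the empty vector, gave +0.24 with overlapping groups (limma adjusted p = 0.0229).

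With COL12A1 counted, 20% of the 10 fibril-associated genes were called, against 28.7% of all genes. Among the other 9 fibril-associated genes 1 passed at the brightest probe set. That gene, COL21A1, was lower, at 3.01, 3.01, 2.81, 3.04 and 2.83 on the YAPS127A arrays, against 3.44, 3.45, 3.50 and 3.47 on the empty vector arrays (-0.53, SE 0.07, limma adjusted p = 0.000152). Its groups did not overlap, but every one of these signals was under its array's lower quartile, 4.24 to 4.27. COL9A3 (+0.22, 95% interval 0.019 to 0.418, limma adjusted p = 0.113) and COL16A1 (-0.036, 95% interval -0.27 to 0.20), both above the median signal, did not pass. COL9A1, COL9A2, COL14A1, COL19A1, COL20A1 and COL22A1 were dim and did not pass.

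Type IV collagen, the network of basement membranes, gave changes that ran in opposite directions between its gene couples. Chains of COL4A3, COL4A4 and COL4A5 are known to join in a shared trimer, as in the filter of the kidney, COL4A5 chains also join those of COL4A6, and COL4A1 chains join those of COL4A2 in nearly all basement membranes. In YAPS127A cells COL4A4 rose, COL4A5 and COL4A6 fell, and COL4A2 rose by less.

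For COL4A4 the brightest probe set read 10.84, 10.67, 10.31, 10.53 and 10.27 in YAPS127A cells, against 9.13, 9.26, 8.79 and 9.29 in empty vector cells. The lowest YAPS127A array was thus well above the highest empty vector array, and the difference was +1.41 (SE 0.13), or 2.65-fold (limma adjusted p = 1.45e-05). A second probe set gave +1.55 (SE 0.14, limma adjusted p = 1.10e-05), and the last, which was dim, gave +0.21 (limma adjusted p = 0.182). COL4A3, its neighbour on the opposite strand, was dim on all 7 of its probe sets. Its brightest gave +0.26 (SE 0.10, limma adjusted p = 0.0802), and the only one to pass read 5.50, 5.40, 5.28, 4.31 and 4.32 in YAPS127A cells, against 3.88, 3.66, 3.59 and 4.03 in empty vector cells (+1.17, SE 0.25, limma adjusted p = 0.00487). On that probe set YAPS127A replicates 1 to 3 were high and replicates 4 and 5 were much nearer to the empty vector arrays.

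The deepest fall among the collagen genes was that of COL4A6. Its brightest probe set read 5.27, 5.43, 4.39, 4.46 and 4.92 in YAPS127A cells, against 7.18, 7.43, 7.29 and 7.41 in empty vector cells. The groups were far apart, with a wider spread in YAPS127A cells, where the signal had dropped below the median of all probe sets. The difference was -2.43 (SE 0.20, limma adjusted p = 3.82e-06), and its other probe sets, both dim, fell by less, at -1.15 and -1.01. The YAPS127A signal of the brightest was dim, and on 2 arrays close to the lower quartile, so no exact fold is given. COL4A5, which starts from the same stretch of chromosome X, read 8.79, 8.51, 8.57, 8.14 and 8.34 in YAPS127A cells, against 9.54, 9.59, 10.03 and 9.60 in empty vector cells. That is -1.22 (SE 0.14), 2.33-fold lower (limma adjusted p = 4.76e-05), and the second probe set gave -0.88.

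COL4A2 read 7.11, 6.94, 6.87, 7.46 and 7.18 in YAPS127A cells, against 6.59, 6.81, 6.66 and 6.73 in empty vector cells (+0.42, SE 0.11, limma adjusted p = 0.0163). The lowest YAPS127A array was only just above the highest empty vector array. The call was lost without empty vector replicate 1 (+0.38, adjusted p = 0.0521). Genes that neighbour it on chromosome 13 were also higher, with a median difference of 0.38 over 49 neighbours, and with that median removed on each array COL4A2 was at +0.048 (adjusted p = 0.802). COL4A1 was dim and did not pass (+0.17, 95% interval -0.023 to 0.36). For COL4A4, COL4A5 and COL4A6 the neighbours' medians were -0.058, 0.0029 and 0.0029, and removal left +1.46, -1.23 and -2.44.

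**Figure D3:**
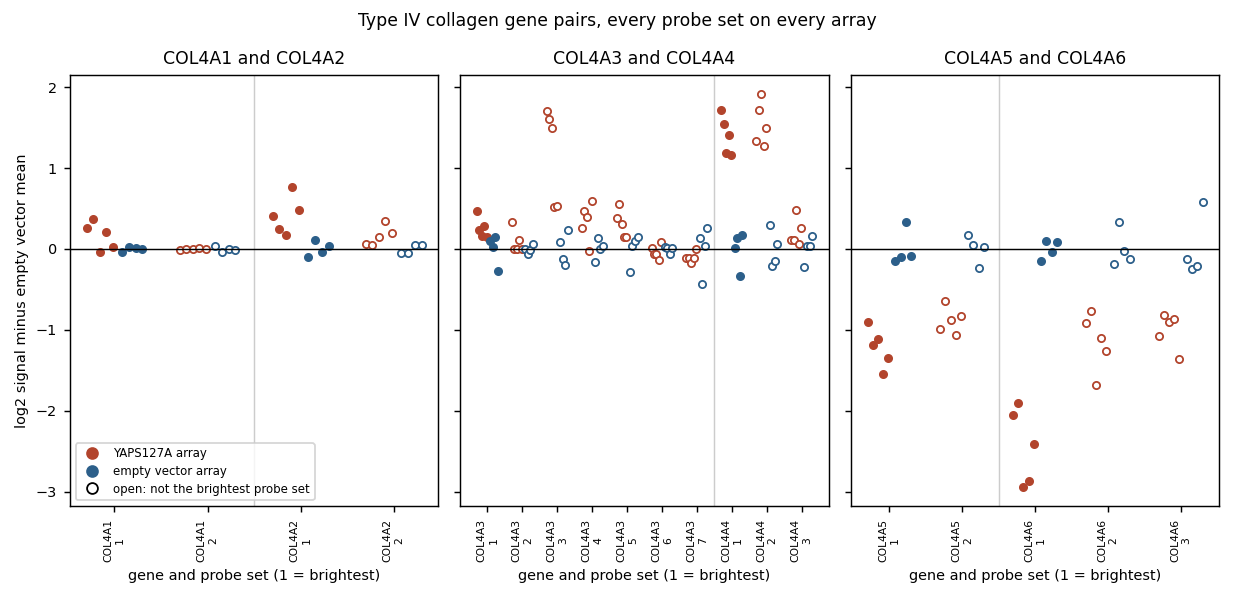
Log2 signal of every probe set of the 6 type IV genes on every array, relative to the empty vector mean of that probe set; filled circles are the brightest probe set of a gene. All probe sets of COL4A5 and COL4A6 lie below 0 on the YAPS127A arrays, and the 2 brightest of COL4A4 lie above it, while COL4A1 stays near 0.

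Of 11 fibril-forming chain genes, 2 fell, none rose in limma, 8 were dim and did not pass, and COL27A1 was above the median signal and did not pass. The called share was 18.2%, against 28.7% of all genes (14.5% higher, 14.2% lower). COL5A2, a chain of type V collagen, which is built into fibrils of type I collagen and limits their width, fell most. Its brightest probe set read 8.37, 8.02, 8.19, 7.94 and 8.20 in YAPS127A cells, against 9.18, 9.35, 9.40 and 9.37 in empty vector cells. The groups stood well apart, and the difference of -1.18 (SE 0.09) was 2.26-fold (limma adjusted p = 2.99e-06). The second probe set gave -1.24.

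COL1A1, the major chain of type I collagen, was lower too. Its brightest probe set read 7.66, 7.43, 7.41, 7.49 and 7.58 in YAPS127A cells, against 8.20, 8.33, 8.19 and 8.13 in empty vector cells. The groups did not overlap (-0.70, SE 0.07, 1.62-fold lower, limma adjusted p = 3.02e-05). Of its 5 probe sets 3 fell, at -0.70, -0.94 and -0.53, the last with overlapping groups. The other 2 gave +0.11 (limma adjusted p = 0.327) and +0.055 (limma adjusted p = 0.757). The neighbours of COL1A1 on chromosome 17 were lower by a median of -0.15, and with it removed COL1A1 was at -0.56.

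COL1A2, whose chain joins that of COL1A1 in type I collagen, was dim on all 3 of its probe sets, with a difference of +0.12 at the brightest (95% interval -0.14 to 0.37). COL3A1, COL5A1, COL5A3, COL2A1, COL11A1, COL11A2 and COL24A1 were likewise dim, with 0 of their probe sets passing in limma and 2 of them, both of COL11A1, at an unadjusted p under 0.05. At the brightest of these COL11A1 had groups that did not overlap (+0.23, limma adjusted p = 0.0559). The difference of COL27A1 was +0.016 (95% interval -0.29 to 0.32).

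Type VI collagen, which makes beaded microfibrils around cells, was lower in both of the chains that could be measured. COL6A1 read 10.51, 10.17, 10.27, 10.14 and 10.24 in YAPS127A cells, against 10.86, 11.04, 11.21 and 10.80 in empty vector cells. The difference was -0.71 (SE 0.10), 1.64-fold lower (limma adjusted p = 0.000283), with 6 of 8 probe sets lower and the other 2 at -0.24 and -0.16. Over those 8 probe sets, the groups did not overlap in 3. COL6A2, next to it on chromosome 21, read 7.96, 7.77, 7.19, 7.79 and 7.78 in YAPS127A cells, against 8.38, 8.62, 8.55 and 8.35 in empty vector cells (-0.78, SE 0.14, limma adjusted p = 0.00123). Its second probe set gave -0.29 (adjusted p = 0.112). Neither gene's groups overlapped at the brightest probe set. COL6A3, whose chain completes the usual type VI trimer, had signals of 4.05 to 4.49 in YAPS127A cells and 4.15 to 4.23 in empty vector cells and did not pass (+0.028, 95% interval -0.16 to 0.21), and COL6A5 and COL6A6 were dim.

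COL7A1, which makes the anchoring fibrils that tie epithelium to the matrix below, read 7.44, 7.21, 6.71, 7.15 and 7.07 in YAPS127A cells, against 7.51, 7.73, 7.55 and 7.43 in empty vector cells. YAPS127A replicate 1 lay within the empty vector range, so the groups overlapped. The difference was -0.44 (SE 0.13, limma adjusted p = 0.0237), and it did not pass without YAPS127A replicate 5 (adjusted p = 0.0503), without empty vector replicate 2 (0.0764) or without empty vector replicate 3 (0.0507).

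Beside COL12A1 and the type IV genes, the genes that rose were COL13A1 and COL8A1. COL13A1, a transmembrane collagen of cell adhesion sites, read 10.18, 10.15, 10.18, 9.72 and 9.88 in YAPS127A cells, against 9.41, 9.28, 9.49 and 9.49 in empty vector cells (+0.60, SE 0.10, limma adjusted p = 0.0012). Its 3 probe sets all rose, by 0.60, 0.44 and 0.45. Its neighbours on chromosome 10 were higher by a median of 0.25, and with that removed COL13A1 was higher by 0.34 (adjusted p = 0.0199).

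COL8A1, a short-chain network collagen known from vessel walls and the cornea, read 12.48, 12.47, 12.40, 12.42 and 12.44 in YAPS127A cells, against 12.23, 12.23, 12.19 and 12.14 in empty vector cells. The groups were narrow and did not overlap (+0.24, SE 0.06, limma adjusted p = 0.00693). A second probe set, with a lower signal, rose by 0.68 (SE 0.10, limma adjusted p = 0.000459), and the last gave +0.12 (adjusted p = 0.531). COL8A2 and COL10A1, the other short-chain network genes, were dim.

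Of the multiplexins, collagens with interrupted helices at basement membranes, COL15A1 was lower at 2.97, 2.76, 2.71, 2.89 and 2.54 in YAPS127A cells, against 3.29, 3.08, 3.35 and 3.73 in empty vector cells (-0.59, SE 0.13, limma adjusted p = 0.00477). These signals too lay below the lower quartile of every array. COL18A1, from which the anti-angiogenic fragment endostatin is cut, was above the median signal and did not pass (-0.14, 95% interval -0.39 to 0.11). COL26A1, above the median as well, did not pass (+0.11, 95% interval -0.046 to 0.27). COL23A1, COL25A1 and COL28A1 were dim and did not pass. Over the 78 collagen probe sets that did not pass, the differences ran between -0.29 and 0.34.

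**Figure D4:**
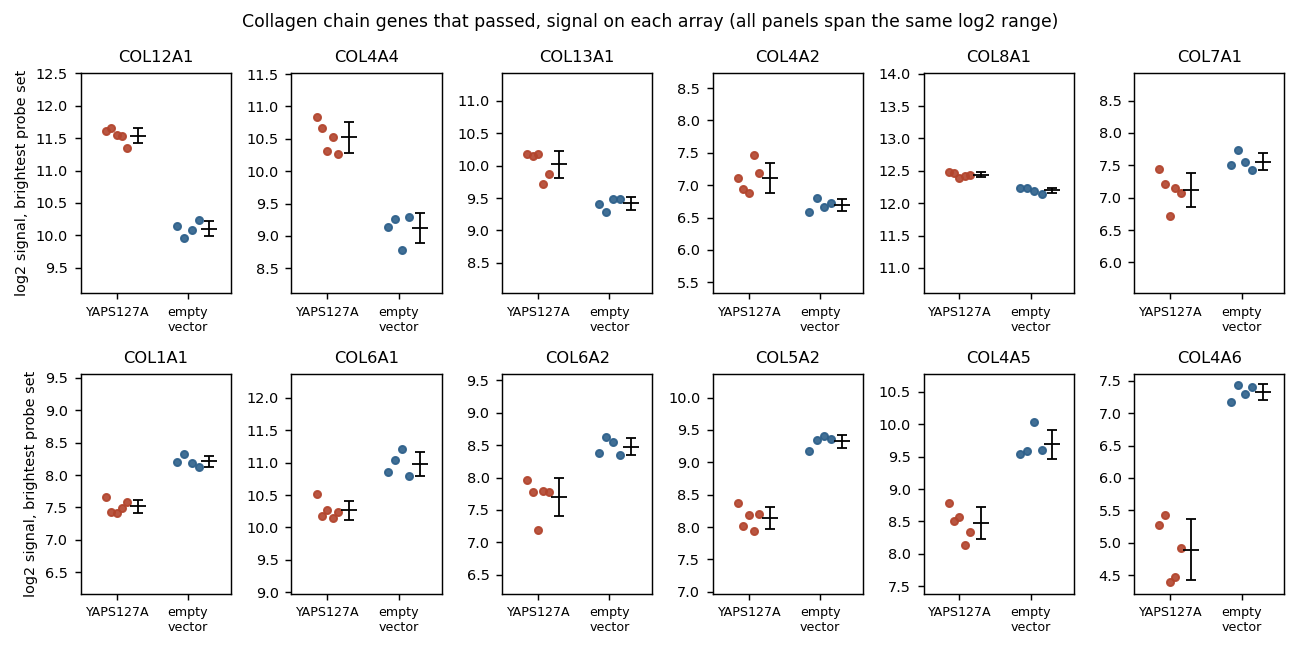
Log2 signal of the brightest probe set on each array for the 12 collagen genes that passed and were above the median signal, YAPS127A left and empty vector right, with mean and SD beside the points; all panels span the same range on the log2 axis. The groups are separate in every panel except that of COL7A1.

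Genes that modify, fold, assemble, link, bind, cut or regulate collagen were set beside the chains, each by its brightest probe set. Crosslinking enzymes had 4 of 6 measured members higher and none lower, with a median difference of 0.58. All 6 were above the median signal, where 21% of genes were higher and 40.7% were called. LOXL4, a lysyl oxidase that oxidises lysines of collagen and elastin, read 8.99, 8.96, 8.90, 8.73 and 8.89 in YAPS127A cells, against 7.05, 7.01, 7.01 and 7.14 in empty vector cells. The groups stood far apart (+1.84, SE 0.07, 3.58-fold, limma adjusted p = 7.70e-09), though the rise was called at 1 of its 2 probe sets and the median difference of its neighbours was 0.28. The related oxidases LOX, LOXL1 and LOXL3 rose by 1.34, 0.77 and 0.38. LOXL2 (-0.097) and the transglutaminase gene TGM2 (-0.020) did not pass.

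Of 20 measured genes for chain hydroxylation and folding, 9 rose and 1 fell, and the median difference was 0.21. Of these 20 genes 19 were above the median signal, where 40.7% of genes were called, 21% higher and 19.7% lower. The number called in both directions together was not far from that share, but the called genes were mostly higher. P3H2, a prolyl 3-hydroxylase, averaged 11.44 ± 0.11 (SD, n = 5) in YAPS127A cells and 10.44 ± 0.08 (SD, n = 4) with the empty vector (limma adjusted p = 1.79e-06). SERPINH1, which encodes the collagen chaperone HSP47, averaged 8.67 ± 0.16 (SD, n = 5) in YAPS127A cells and 7.71 ± 0.29 (SD, n = 4) with the empty vector (limma adjusted p = 0.00019). P4HA1, a catalytic subunit of prolyl 4-hydroxylase, rose by 0.83. P3H2 and P4HA1 were each called at 1 of their 2 probe sets, and the neighbours of P4HA1 were higher by a median of 0.35. MIA3, which loads collagen into transport carriers, fell (-0.60), with a neighbours' median of -0.24. With the stricter threshold of 0.01, 5 of these genes rose.

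Among 16 genes of propeptide removal and fibril assembly, 3 rose and 2 fell, with a median of 0.021. The collagen-binding genes SPARC and LUM rose by 1.40 and 1.45, and fibronectin, FN1, and PCOLCE2, an enhancer of propeptide cleavage, fell, at -0.79 and -0.56. SPARC was dim in empty vector cells, at 4.70 ± 0.24 (SD, n = 4). Of 9 collagen receptor genes 1 passed, the integrin gene ITGA1, lower at -0.64, and the median was 0.0087. The assembly list had 5 called of 16 and the receptor list 1 of 9, beside 28.7% of all genes.

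Of 13 collagen-cleaving proteases and their inhibitors, 3 rose and 2 fell, with a median of -0.012, beside 28.7% called of all genes and 40.7% of those above the median signal, as were 8 of the 13. MMP1, the interstitial collagenase that cuts fibrils of type I collagen, read 9.27, 9.69, 9.77, 9.34 and 9.35 in YAPS127A cells, against 12.08, 11.87, 12.19 and 12.19 in empty vector cells. The groups stood far apart, at -2.60 (SE 0.12), 6.05-fold lower in YAPS127A cells (limma adjusted p = 3.46e-08). MMP15 and MMP14, membrane-bound proteases, rose by 0.52 and 0.35 (the neighbours of MMP15 were at a median of 0.42), and the inhibitor gene TIMP2 rose by 0.30.

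Of 15 transcriptional regulators of collagen genes, 3 rose and 4 fell, with a median of -0.041. Of the 15, 14 were above the median signal, where 40.7% of genes were called, so the count was near that share. CREB3L1, which drives COL1A1 in bone, fell (-1.13, SE 0.07, limma adjusted p = 5.46e-07), with a neighbours' median of -0.33, and RUNX2 fell at its brightest probe set (-0.72) and at no other of its 6. SMAD3 was lower at its brightest probe set (-0.22) and higher at another. TEAD4, a DNA-binding partner of YAP1, rose by 0.40. Only 1 of the 15 rose without YAPS127A replicate 1, 2 or 5, or without empty vector replicate 2 or 3.

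**Figure D5:**
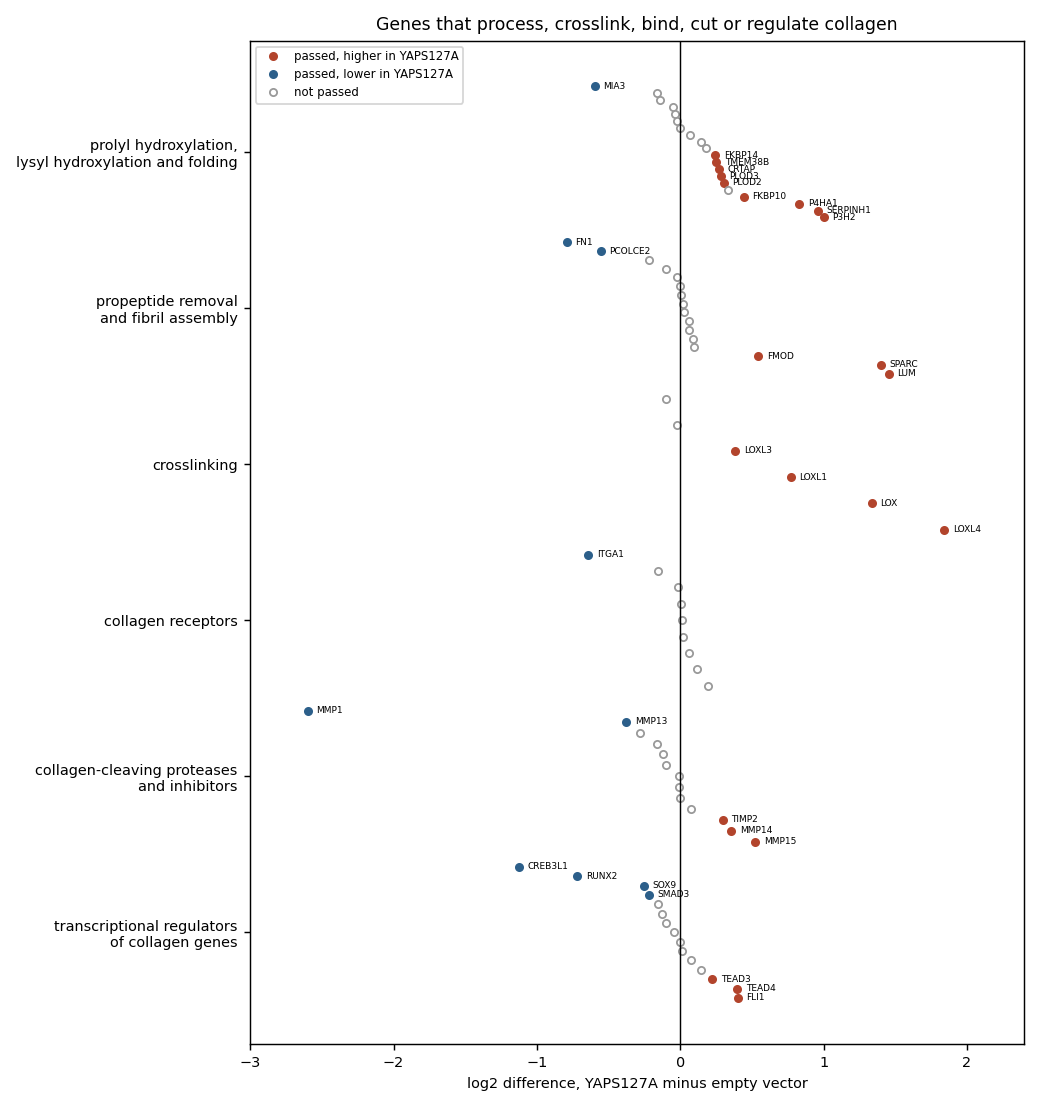
Log2 difference, YAPS127A minus empty vector, of the genes that process, crosslink, bind, cut or regulate collagen, each by its brightest probe set; filled circles passed limma at an adjusted p of 0.05 and carry the gene's symbol. LOXL4 lies farthest to the right at 1.84 and MMP1 farthest to the left at -2.60.

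Markers of other cell types were read on the same arrays beside these results. For comparison with each list, limma called 28.7% of all genes and 40.7% of those above the median signal. Of 10 fibroblast and stellate cell markers 3 rose (FBLN1, LUM and POSTN) and 1 fell (RGS5). The other 6 did not pass, and the median difference of the list was 0.051. The summed linear signal of the list was 4825 to 5310 in YAPS127A cells and 1618 to 1956 in empty vector cells. That sum is weighted to the brightest gene, FBLN1, which averaged 11.80 in YAPS127A cells and 9.83 with the empty vector. It does not show a rise of the list as a whole. In the list 5 of 10 were above the median signal, namely the 4 called genes and DES. DES averaged 6.81 in YAPS127A cells and 6.89 with the empty vector and did not pass. The other members, PDGFRA, PDGFRB, FAP, THY1 and DCN, were dim in both groups and did not pass. Of 5 endothelial markers none passed in limma and 1, TEK, had an unadjusted p under 0.05 (0.0218), and of 3 leukocyte markers CD14 fell and none rose. The part of these markers in the collagen results was not tested.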

How the data were processed

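Total RNA of HuCCT1 cells was copied to cDNA, amplified, labelled with biotin and hybridised to single-colour arrays, per the labels' protocols. The authors deposited 1 log2 signal for each probe set and array; the scale was judged from the range of values, since no header names it. The sources used here do not state the background correction, summarisation or normalization. The array medians are nearly equal, so the deposited log2 values were used without further scaling. Every array column belonged to a labelled sample, with 0 others.

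Without its 62 control probe sets, the table held 54613, which were fitted with limma 3.58.1 in R 4.3.3 (lmFit, eBayes, no covariate) and Benjamini-Hochberg adjustment over all of them. GEO's platform annotation named 1 gene for 41091 probe sets, several for 1801 and none for 11721, and symbols were updated by gene ID through RefSeq (GRCh38.p14), which matched 41037. Each gene was represented by the probe set with the highest mean over the arrays. Neighbours were up to 50 genes nearest in the RefSeq order with a signal above the median. Of the collagen probe sets, 37 carry the suffix _s_at and 6 the suffix _x_at, which mark sets that can read several transcripts. Errors beside differences are SEs and those beside levels are SDs.

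The members and gene lists were chosen with earlier results of these data known. Named were COL12A1, COL1A1, every collagen gene with a called probe set or a signal above the median, and per list up to 4 called genes with the lowest p; other list genes, and the cell markers beyond their counts, were named after their values were seen. The fit was tested on simulated data. The alternatives were quantile normalization, median centring, leaving out dim probe sets, trend and robust eBayes, the replicate number as a block, array weights, the actin gap as a covariate, each array left out, the mean of a gene's probe sets, neighbours' median removed and a threshold of 0.01. A pseudocount was not needed for log2 values. Plots used matplotlib 3.10.9 (Python 3.11.15).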

Additional observations from a re-analysis of the deposited data

Results flagged for a closer look

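Among 80 groups of arrays, taken over the collagen probe sets that were called or named, 6 held an array whose gap to the nearest other array was large against the range of its group; chance gives about 1 in 20. COL8A1 at its second probe set was lowest in YAPS127A replicate 1, at 9.87, with the nearest array at 10.12. COL6A2 was lowest in YAPS127A replicate 3, at 7.19 against 7.77, and COL9A3 was highest in YAPS127A replicate 2, at 6.76 against 6.41. COL4A5 was highest in empty vector replicate 3, at 10.03 against 9.60. COL4A6 at its dimmest probe set was highest in empty vector replicate 4, at 5.10 against 4.40. COL27A1 was highest in empty vector replicate 1, at 7.95 against 7.73. The calls of COL8A1, COL6A2, COL4A5 and COL4A6 held at the brightest probe set with each array left out in turn.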

How the results depend on the processing

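The main test gave 5 collagen genes higher and 9 lower, and 14 probe sets higher and 20 lower. With each array left out in turn these counts were 5 to 6, 8 to 9, 13 to 15 and 19 to 21. With the neighbours' median removed, 8 genes were higher and 10 lower: COL4A2 lost its call, and the dim genes COL10A1 (+0.40), COL22A1 (+0.37), COL4A3 (+0.31) and COL14A1 (+0.26) became higher and COL24A1 (-0.57) lower, without their own signals having passed. That removal assumes that a gene follows its neighbours and can create a difference where it does not. Under the other alternatives each collagen count lay within 1.5 times its main value, and the 14 called genes kept their direction under every alternative run. Genes that did not pass changed sign in places. Leaving out arrays gave COL27A1 -0.085 to 0.090 and COL16A1 -0.139 to 0.039, and removal of the neighbours' median turned COL10A1 and COL14A1 (above), COL4A1 (-0.20), COL11A1 (-0.15) and COL6A6 (-0.040). Averaging a gene's probe sets turned 7 dim genes, all within 0.11 of 0 by that mean. COL4A3 passed when its probe sets were averaged (+0.29, adjusted p = 0.00615) and with the actin gap as a covariate (+0.30, adjusted p = 0.0392). COL4A2 and COL7A1 did not pass at 0.01. The replicate numbers gave no sign that the samples are paired. Deviations of same-numbered arrays correlated between -0.461 and 0.0301 over probe sets, and those of other pairs between -0.311 and 0.422. These few correlations cannot exclude a pairing. With the number as a replicate block, 5 genes were higher and 8 lower, and 13 probe sets higher and 18 lower; COL7A1 lost its call (-0.43, adjusted p = 0.0567). Counts of the other lists moved as well. Folding genes higher were 5 with the block or at 0.01, and lower 2 with trend and robust eBayes and 3 with averaged probe sets. Receptor genes lower were 3 with averaged probe sets and 2 with neighbours removed, and higher 1 with trend and robust eBayes and 2 with neighbours removed. Assembly genes higher were 1 without dim probe sets, and regulators were 1 higher and 2 lower with the block or at 0.01. Dim probe sets leave 26 of the 43 genes poorly measured.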

Other observations

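COL27A1, a fibril-forming chain, split within YAPS127A cells at its second probe set, with 7.37 and 7.35 in replicates 1 and 2 and 6.57, 6.95 and 6.55 in replicates 3 to 5, against 7.06, 7.22, 7.25 and 7.03 in empty vector cells. Its brightest probe set had 8.04 and 8.19 in YAPS127A replicates 1 and 2 and 7.67, 7.54 and 7.49 in replicates 3 to 5, against 7.95, 7.72, 7.73 and 7.69 in empty vector cells. The mean differences were -0.18 and +0.016. Another probe set above the median signal did not split, with 6.37, 6.45, 6.24, 6.45 and 6.22 in YAPS127A cells, against 6.18, 6.34, 6.45 and 6.16 in empty vector cells, and the other two were dim. These probe sets were chosen after their values were seen.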
